A study of Homo sapiens with 9 samples.

Results

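Metallothioneins, their zinc-sensing activator MTF1 and the zinc exporter SLC30A1 were followed by gene symbol through RNA-seq of HaCaT cells, an immortalized human keratinocyte line. The 8 genes were MT1E, MT1F, MT1G, MT1M, MT1X, MT2A, MTF1 and SLC30A1, out of 16199 genes listed in at least 1 of 9 libraries. Of the 8, 7 were listed and 6 had enough counts to be tested. All cells were wild type and in serum-free medium, either untreated, with EGF (epidermal growth factor) at 10 nM for 24 h, or with bleogen pB1, a cystine-knot peptide of the cactus Pereskia bleo that activates the EGF receptor, at 1 µM for 24 h. Each group had 3 libraries. The agonists were given at different doses, so that their direct comparison is between these treatments and not between matched doses. Nothing in the labels says whether replicates were separate cultures, and the p-values therefore measure only the spread between these libraries.

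Metallothioneins are small cysteine-rich proteins that bind zinc and copper ions in the cytosol and buffer their free concentration. Their genes are switched on when zinc rises, through MTF1, a zinc finger transcription factor that binds metal response elements in their promoters. SLC30A1 (ZnT1) exports zinc across the plasma membrane and is itself a target of MTF1, so that storage and export respond to the same sensor. In skin, metallothioneins are known from proliferating basal keratinocytes and wound edges.

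The 6 metallothionein genes lie on chromosome 16 within 75.6 kb (GRCh38, GENCODE annotation), a stretch with 12 metallothionein genes and pseudogenes. MT2A lies at chr16:56608584-56609497, MT1E at chr16:56625475-56627112, MT1M at chr16:56632659-56633981, MT1F at chr16:56657731-56660698 and MT1X at chr16:56682470-56684196, all on the plus strand, while MT1G at chr16:56666730-56668065 is on the minus strand. MTF1 (chr1:37809574-37859592) and SLC30A1 (chr1:211571568-211579161) are on the minus strand of chromosome 1. The 250 bases before the transcription start are shown for MT2A, MT1X and SLC30A1, which hold the core of the metal response element, TGCACNC or TGCGCNC on either strand. Capitals mark each match, and a match is a description of the letters, not a measured binding site. The RefSeq promoter table (GRCh38.p14) held 4 of the 8 genes, the fourth being MTF1.
MT2A, chr16:56608334-56608583, plus strand: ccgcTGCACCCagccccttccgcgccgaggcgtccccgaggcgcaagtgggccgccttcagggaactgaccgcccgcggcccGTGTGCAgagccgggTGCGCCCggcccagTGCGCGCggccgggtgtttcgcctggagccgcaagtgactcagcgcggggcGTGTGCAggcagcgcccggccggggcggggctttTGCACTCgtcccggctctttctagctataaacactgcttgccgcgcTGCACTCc
MT1X, chr16:56682220-56682469, plus strand: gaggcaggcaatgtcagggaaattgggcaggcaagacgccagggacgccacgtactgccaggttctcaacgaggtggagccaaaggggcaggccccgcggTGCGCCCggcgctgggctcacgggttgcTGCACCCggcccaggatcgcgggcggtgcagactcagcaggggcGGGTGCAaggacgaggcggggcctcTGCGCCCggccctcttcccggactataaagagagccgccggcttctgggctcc
SLC30A1, chr1:211579162-211579411, minus strand: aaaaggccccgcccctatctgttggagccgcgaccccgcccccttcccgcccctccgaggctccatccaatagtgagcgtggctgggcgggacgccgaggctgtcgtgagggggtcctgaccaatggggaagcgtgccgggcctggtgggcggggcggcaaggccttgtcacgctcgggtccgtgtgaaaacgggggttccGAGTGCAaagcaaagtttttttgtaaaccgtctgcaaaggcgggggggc
MT2A, the most abundant of these genes, held 7 matches, 5 with TGCACNC and 2 with TGCGCNC, and 0.03% of 35114 RefSeq promoters of this length held as many. MT1X held 4 matches, as many as 0.37% of promoters did. SLC30A1 had 1 match, on the opposite strand, and 24.8% of promoters had at least 1. These letters were not in the window before MTF1. None of the matches overlapped another in the same promoter.

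**Figure D1:**
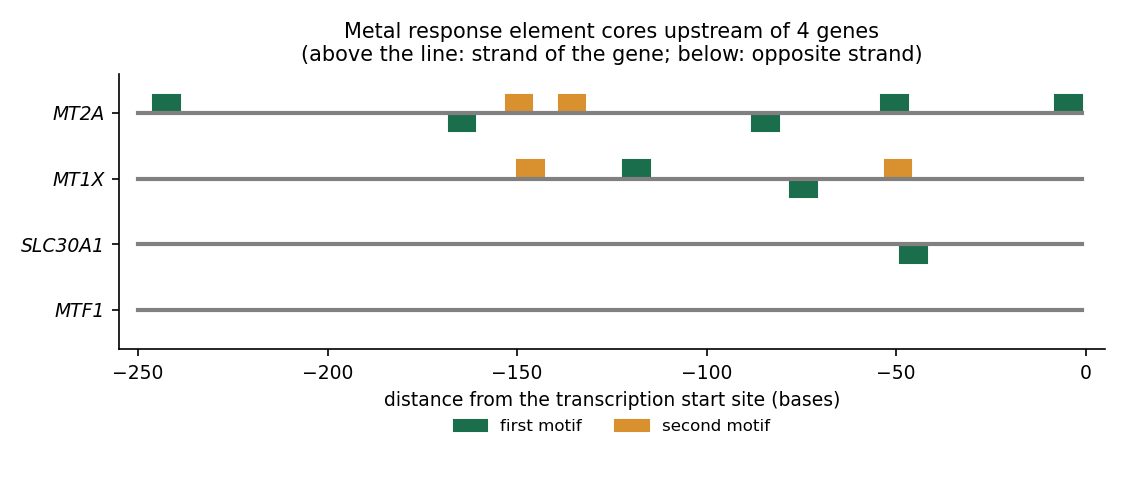
Matches to the core of the metal response element in the 250 bases before the transcription start of 4 genes, with distance in bases on the x axis and 1 line per gene. Green boxes are the first motif (A at the fourth base), orange boxes the second (G at the fourth base), boxes above the line are on the strand of the gene. MT2A has 7 matches, MT1X 4, SLC30A1 1 and MTF1 0.

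The libraries held 20288417 to 21320994 expected counts (estimates that divide reads among the transcripts they fit), and levels are given as CPM, counts scaled to library size with TMM factors. A count of 0 allows a level of up to 3 counts of the total, which was 0.141 to 0.148 CPM and covers counting error only. All 10 keratinocyte markers, among them KRT5, KRT14 and TP63, were detected in every library, with a summed level of 11674 to 14883 CPM. The 10 markers of immune, endothelial, fibroblast and melanocyte cells summed to 15.3 to 23.4 CPM, with 2 to 4 of them at 0 in each library. Most of this sum was CD68, with 11.8, 20.2 and 10.7 CPM on average in untreated, EGF and bleogen pB1 cells. PTPRC, also an immune marker, had 0.13, 0.049 and 0.125 CPM. Across these bulk libraries, fewer cells that use a gene and less of its RNA per cell cannot be told apart.

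In untreated cells, MT2A made up most of the metallothionein transcripts. Per length, its level was 278.5 ± 27.7 FPKM (SD, n = 3), which placed it at rank 220 of the 15250 genes listed in that group. MT1E followed with 38.4 ± 4.97 FPKM, then MT1X with 9.27 ± 2.26 and MT1F with 6.53 ± 0.632, and the last pair overlapped between libraries. MTF1 had 4.42 ± 0.257 FPKM and SLC30A1 1.74 ± 0.213 FPKM, the lowest of the 6. The length in the files for SLC30A1 was 2034 bases, shorter than the 5893 bases of its canonical GENCODE transcript, so that its FPKM is higher than it would be with the longer length. MT1M had 1 count in untreated replicates 1 and 2 and 0 in the other 7 libraries. MT1G was listed in no library. Of the other metallothionein genes, MT1B alone was listed, with 1 count in untreated replicate 1.

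With EGF the order of the low genes was another. MT2A remained first with 218.1 ± 13.5 FPKM (rank 289 of 15149), and MT1E second with 18.1 ± 5.4 FPKM, now at rank 4224 against 2110 in untreated cells. MT1X with 6.52 ± 0.884, MTF1 with 5.55 ± 0.162, SLC30A1 with 4.88 ± 0.94 and MT1F with 3.79 ± 1.2 FPKM followed, each overlapping the next in range. With bleogen pB1 the order was that of untreated cells: MT2A 203.6 ± 19.8, MT1E 36.2 ± 7.72, MT1X 6.7 ± 0.755, MT1F 6.18 ± 1.44, MTF1 4.65 ± 0.261 and SLC30A1 2.79 ± 0.822 FPKM. Here MT1X, MT1F and MTF1 overlapped from one to the next.

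**Figure D2:**
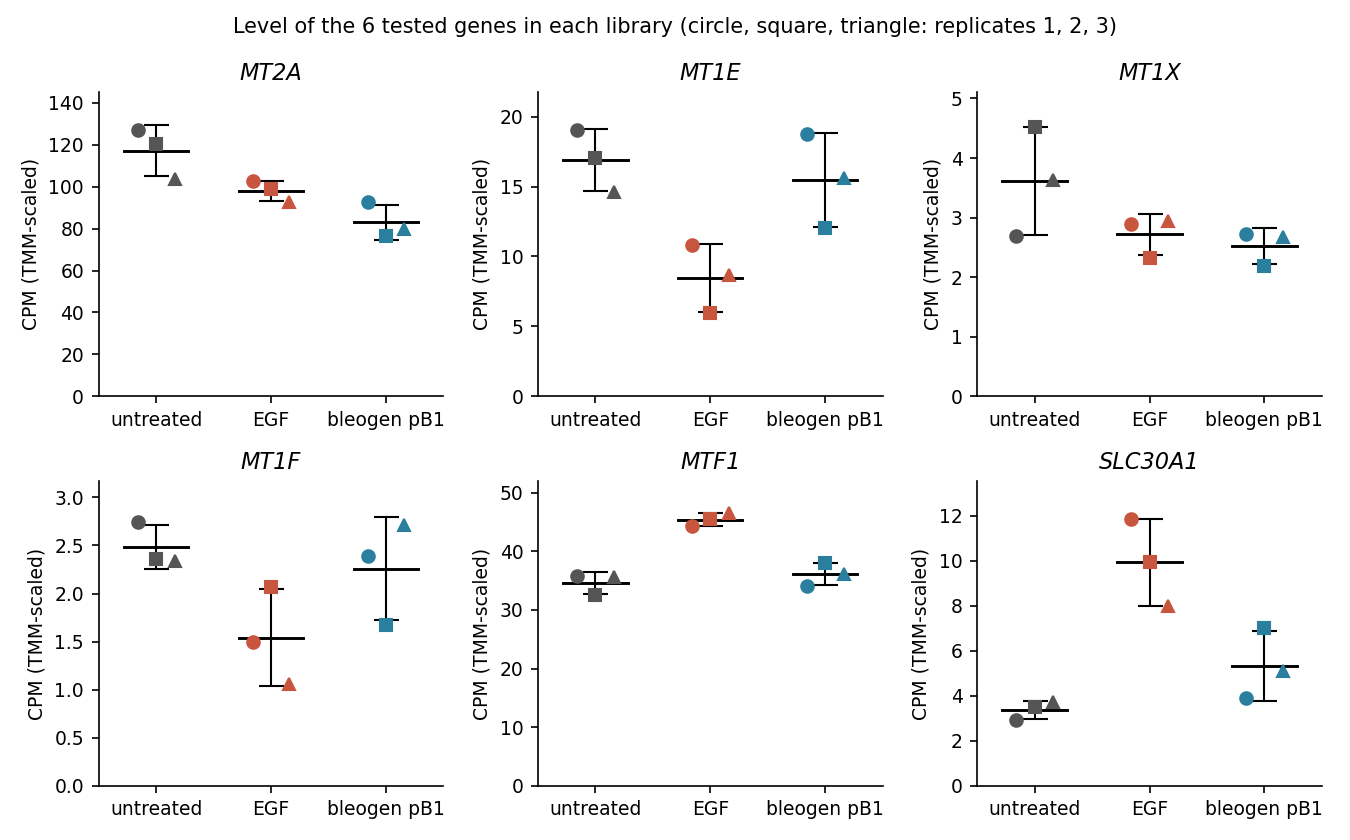
Level of the 6 tested genes in each library, in TMM-scaled CPM on a linear axis from 0, by group. Points are libraries (circle, square and triangle for replicates 1, 2 and 3), the long bar is the mean and the whiskers the SD of 3. The 3 EGF libraries of SLC30A1 and MTF1 lie above, and those of MT1E, MT1F and, narrowly, MT2A below, all untreated libraries.

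EGF against untreated cells addresses what the canonical ligand of the receptor does to this set. SLC30A1 rose, MT1E and MT1F fell, and the remaining 3 tested genes did not pass both limits (log2 fold change of 0.5 or more either way and p of 0.05 or less after Benjamini-Hochberg adjustment, in a quasi-likelihood fit of edgeR to 12394 genes). Thus 1 of 6 tested genes was called higher and 2 of 6 lower, where 15.1% of all tested genes were called higher and 21.8% lower.

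SLC30A1 had 2.94, 3.49 and 3.73 CPM in untreated replicates 1 to 3, and 11.8, 9.97 and 7.99 CPM with EGF. The lowest EGF library was above the highest untreated one. Its log2 fold change was 1.55 (SE 0.213, 95% interval 1.09 to 2.01), a 2.93-fold difference with an adjusted p of 3.5e-05 by edgeR. This was the largest change of the 6 genes in this comparison, and it remained called in all 15 alternative settings, between 1.09 and 1.69.

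MT1E, a metallothionein isoform of the MT1 group, had 19.0, 17.0 and 14.6 CPM untreated and 10.8, 5.94 and 8.67 CPM with EGF, without overlap. It fell by 49.9%, with a log2 fold change of −0.996 (SE 0.201, interval −1.43 to −0.56) and an adjusted p of 0.00073 by edgeR. MT1F was far lower, with 2.75, 2.36 and 2.34 CPM untreated and 1.5, 2.06 and 1.06 CPM with EGF, which rested on 22 to 57 counts per library. The groups did not overlap. MT1F fell by 38.0%, with a log2 fold change of −0.69 (SE 0.267, interval −1.27 to −0.11) and an edgeR adjusted p of 0.036. This call was lost with DESeq2 (adjusted p = 0.061) and on leaving out any of untreated replicates 1, 2 and 3 or EGF replicate 1 or 3 (adjusted p 0.058 to 0.15 by edgeR).

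MT2A, the main isoform, had 127.2, 120.3 and 103.8 CPM untreated and 102.5, 98.6 and 92.6 CPM with EGF. The groups were adjacent without overlap, with 102.5 against 103.8 CPM at the border. The difference of −0.26 (SE 0.087, interval −0.45 to −0.07) passed the adjusted p of edgeR (0.018) but not the fold limit. Without untreated replicate 1 or 2 or EGF replicate 3 its edgeR adjusted p was 0.095, 0.06 and 0.085. MT1X had 2.7, 4.52 and 3.63 CPM untreated and 2.9, 2.32 and 2.94 CPM with EGF, with overlapping groups and a log2 fold change of −0.41 (interval −0.87 to 0.05, edgeR adjusted p = 0.11). Without untreated replicate 1, the lowest of its group, MT1X was called at −0.58 (edgeR adjusted p = 0.033). Without untreated replicate 2, the highest, it was −0.22 (edgeR adjusted p = 0.42), and −0.30 without EGF replicate 2 (edgeR adjusted p = 0.28).

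MTF1, the zinc sensor, had 35.8, 32.5 and 35.6 CPM untreated and 44.3, 45.5 and 46.5 CPM with EGF. The groups did not overlap, and libraries of 1 group lay close together. Its log2 fold change of 0.39 (SE 0.07, interval 0.24 to 0.54) had an edgeR adjusted p of 0.0003 and stayed under the fold limit, a difference of 31.2%. Over leaving out any 1 library it was 0.35 to 0.41.

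The summed level of keratinocyte markers also differed between these groups, with 11674 to 11929 CPM with EGF and 13157 to 14336 CPM untreated. Of its 10 genes 4 were called higher and 2 lower, beside 15.1% of all tested genes called higher and 21.8% called lower. KRT5 fell by 1.12 and KRT15 by 1.85 on the log2 scale, whereas KRT14 rose by 0.88. Of 5 tested markers of other cell types 1 was called higher and 4 lower, beside the same shares. CD68 rose by 0.77, and those lower included COL1A1 (2.96 to 0.926 CPM on average) and CDH5 (2.72 to 0.1 CPM). Of the fibroblast markers, COL1A2 and PDGFRA were at 0 in 8 libraries each. DCN had 6, 22 and 12 counts untreated, 0, 0 and 1 with EGF, where it was called lower, and 14, 13 and 19 with bleogen pB1. The part of these markers in the differences of the metallothionein and zinc exporter genes was not tested. With bleogen pB1 the keratinocyte sum of 12594 to 14883 CPM overlapped that of untreated cells, and KRT14 had a log2 fold change of 0.48 (edgeR adjusted p = 0.0017). CDH5, an endothelial cadherin, fell with bleogen pB1 to 0.534 CPM on average (edgeR adjusted p = 0.0077), a call that DESeq2 did not make. It was the 1 edgeR call among the 5 tested markers of other cell types, beside 1.26% of all tested genes called lower.

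Bleogen pB1 against untreated cells asks the same of the plant-derived agonist. None of the 6 tested genes was called by edgeR, where 0.218% of all tested genes were called higher and 1.26% lower. At an unadjusted p under 0.05 there were 3 of the 6, MT2A, MT1X and SLC30A1. The share of all tested genes at this unadjusted limit was not computed, here or for the lists below. The shares of called genes are no measure for these counts. DESeq2 called none of the 6 either, and gave no adjusted p for MT1F.

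MT2A had 92.6, 76.5 and 79.7 CPM with bleogen pB1, each below the lowest untreated value of 103.8 CPM. The log2 fold change of −0.50 (SE 0.087, interval −0.69 to −0.31) had an edgeR adjusted p of 0.007 and fell short of the fold limit in the third decimal, at −0.498. It was called with RLE factors, upper-quartile factors or only the 6 libraries compared (−0.50 to −0.51), and without untreated replicate 3 or bleogen pB1 replicate 1 (both −0.58). Its edgeR adjusted p was above the limit without untreated replicate 1 (0.054) or bleogen pB1 replicate 3 (0.058).

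SLC30A1 had 3.92, 7.01 and 5.1 CPM with bleogen pB1, all above the untreated libraries, of which the highest had 3.73 CPM. Its log2 fold change of 0.66 (SE 0.222, interval 0.18 to 1.14) did not pass the edgeR adjusted p (0.11). Replicate 1 was the lowest of the group, close to the untreated cells, and without it the value was 0.84 with an edgeR adjusted p of 0.025. Without replicate 2, the highest of the group, it was 0.41 with an edgeR adjusted p of 0.43. The number of calls over all genes also depended on bleogen pB1 replicate 1, with 183 calls in all and 436 without that library.

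MT1E had 18.8, 12.02 and 15.6 CPM with bleogen pB1, of which replicate 2 was below the untreated range, and a log2 fold change of −0.13 (interval −0.54 to 0.29, edgeR adjusted p = 0.74). MT1F had 2.39, 1.67 and 2.72 CPM and a log2 fold change of −0.14 (interval −0.69 to 0.41, edgeR adjusted p = 0.79). Both groups overlapped with the untreated one. Without bleogen pB1 replicate 2, the lowest for both genes, the values were 0.02 and 0.04. MT1X had 2.72, 2.18 and 2.67 CPM, with a log2 fold change of −0.52 (interval −0.98 to −0.06, edgeR adjusted p = 0.18). MTF1 had 34.2, 38.0 and 36.2 CPM, with a difference of 0.06 (interval −0.09 to 0.21, edgeR adjusted p = 0.65), an interval that leaves out the 0.39 measured with EGF.

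**Figure D3:**
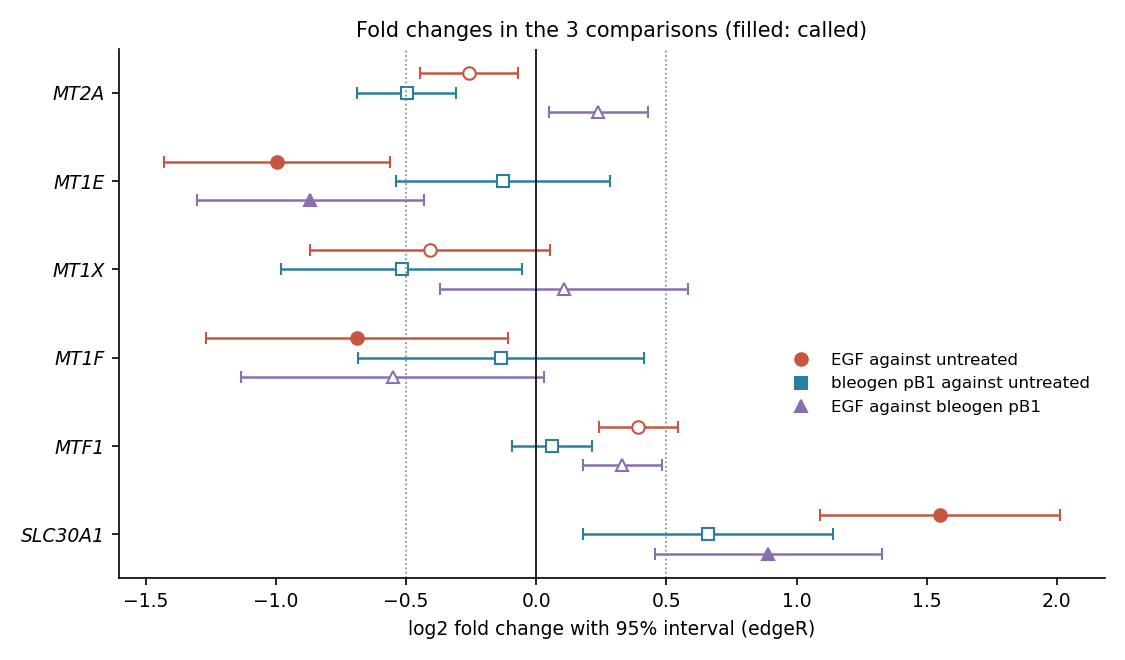
Log2 fold change of the 6 tested genes in 3 comparisons (edgeR), with 95% intervals as bars. Filled symbols passed both limits and open symbols did not, and the dotted lines mark a log2 fold change of 0.5 either way. SLC30A1 at 1.55 and MT1E at −0.996 stand out for EGF against untreated cells, and none is filled for bleogen pB1 against untreated cells.

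The direct comparison of EGF with bleogen pB1 shares the EGF and bleogen pB1 libraries with the comparisons above, and is given for its own values. In it SLC30A1 was higher and MT1E lower with EGF, 1 of 6 tested genes in each direction, where 10.8% of all tested genes were called higher and 18.0% lower. SLC30A1 differed by 0.89 on the log2 scale (SE 0.202, interval 0.46 to 1.33, edgeR adjusted p = 0.0022), and the lowest EGF library at 7.99 CPM was above the highest bleogen pB1 library at 7.01 CPM. MT1E differed by −0.87 (SE 0.202, interval −1.30 to −0.43, edgeR adjusted p = 0.0026), and its highest EGF value of 10.8 CPM was below the lowest bleogen pB1 value of 12.02 CPM. Both calls held in all 15 alternative settings.

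MTF1 was higher with EGF by 0.33 (interval 0.18 to 0.48, edgeR adjusted p = 0.0014), without overlap and under the fold limit. MT1F differed by −0.55 (interval −1.14 to 0.03), which did not pass the edgeR adjusted p (0.095). It was called without EGF replicate 2 (−0.81, edgeR adjusted p = 0.028) or bleogen pB1 replicate 2 (−0.72, edgeR adjusted p = 0.036), and by limma on log2(FPKM + 1) (−0.59, adjusted p = 0.014) and log2(FPKM + 0.1) (−0.71, adjusted p = 0.015). MT2A differed by 0.24 (interval 0.05 to 0.43, edgeR adjusted p = 0.032), with overlap at the border and under the fold limit. Its adjusted p was 0.17 with upper-quartile factors and 0.11 without scaling factors, and both limma fits gave 0.10 on the log2 scale (adjusted p = 0.34). MT1X differed by 0.11 (interval −0.37 to 0.58, edgeR adjusted p = 0.7), which leaves room for differences of either sign.

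Summed over the 5 listed metallothioneins, the untreated libraries had 151.7, 144.3 and 124.4 CPM, the EGF libraries 117.7, 109.0 and 105.2 CPM, and the bleogen pB1 libraries 116.5, 92.3 and 100.8 CPM. Both treated groups lay below every untreated library and overlapped each other. The means were 140.1 ± 14.1, 110.6 ± 6.41 and 103.2 ± 12.3 CPM (SD, n = 3 each). Against untreated cells the log2 ratio of the means was −0.34 with EGF and −0.44 with bleogen pB1, to be set against a pooled SD of 0.121 and 0.16 on that scale. These sums were not tested.

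The shares of MT2A and of MT1E in the sum lay apart in the 3 groups, whereas those of MT1X and MT1F overlapped. MT2A made up 83.7% ± 0.299 of the summed metallothionein FPKM in untreated cells, 88.5% ± 1.7 with EGF and 80.7% ± 2.01 with bleogen pB1 (SD, n = 3 each). MT1E as a percentage of MT2A FPKM was 14.3, 13.5 and 13.4 in untreated cells, 10.1, 5.76 and 8.95 with EGF, and 19.4, 15.0 and 18.7 with bleogen pB1. The 3 groups did not overlap, with EGF below and bleogen pB1 above the untreated libraries. These ratios were not tested. The lengths in the files were 519 bases for MT1E and 499 for MT2A, against 746 and 401 bases in their canonical transcripts. The size of these percentages depends on the lengths used, which were the same in every library for both genes. For EGF the interval of the log2 fold change of MT1E, −1.43 to −0.56, lay below that of MT2A, −0.45 to −0.07, whereas for bleogen pB1 the intervals of the 2 genes overlapped.

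SLC30A1 as a percentage of summed metallothionein FPKM was 0.418, 0.525 and 0.648 in untreated cells, 2.19, 2.04 and 1.69 with EGF, and 0.72, 1.61 and 1.08 with bleogen pB1. The groups were again separate, in the order untreated, bleogen pB1, EGF. Across the 9 libraries, log2 CPM of SLC30A1 and of the summed metallothioneins had a Pearson r of −0.62, a description over libraries that share 3 treatments.

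**Figure D4:**
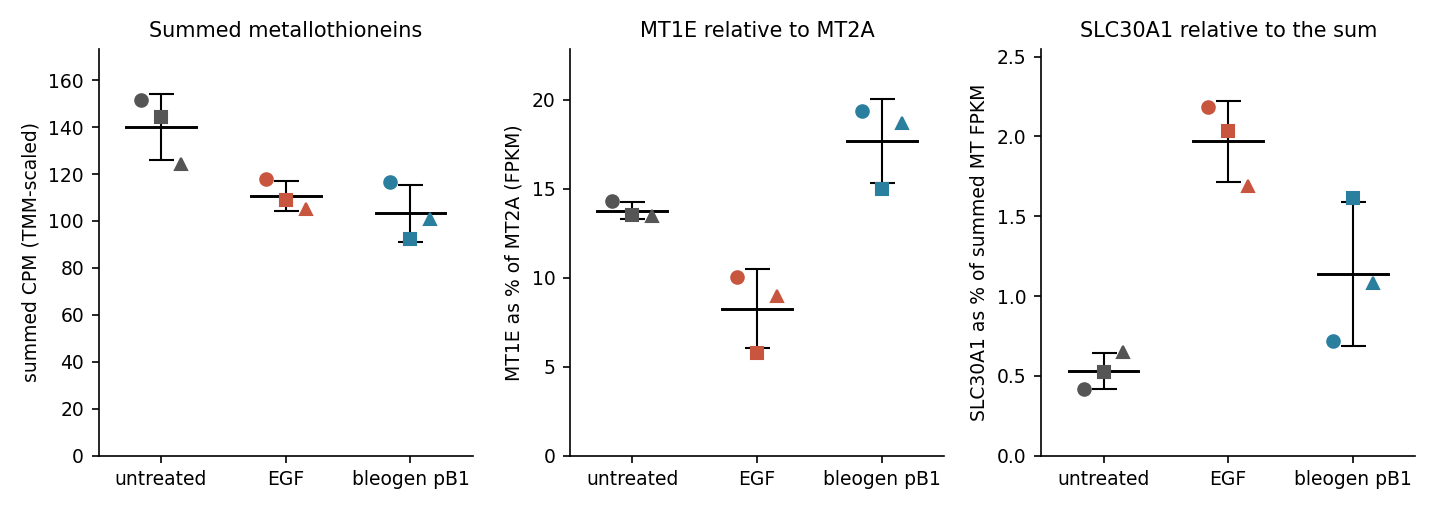
Summed metallothionein CPM (left), MT1E as a percentage of MT2A in FPKM (middle) and SLC30A1 as a percentage of summed metallothionein FPKM (right) in each library, by group, on axes from 0. Points are libraries, the long bar is the mean and the whiskers the SD of 3. The sum is lower in all 6 treated libraries than in the 3 untreated ones, MT1E relative to MT2A is lowest with EGF and highest with bleogen pB1, and SLC30A1 relative to the sum is highest with EGF.

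Metallothionein transcripts resemble each other in sequence. Of the windows of 50 bases in the canonical transcripts, 10.3% of those of MT1E, 6.1% of MT1F, 18.0% of MT1X and 10.2% of MT2A recurred without mismatch in another gene of the family, and no window of 100 bases did. The expected counts of the 5 listed metallothioneins were whole numbers in every library, whereas those of MTF1 were fractional. How reads shared within the family were counted is not given in the sources used here. The strand used in counting was not stated, and a transcript model on the other strand overlaps MTF1, so that reads from both could be counted there. Another model on the same strand overlaps MT1X.

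Other zinc carriers place these differences. Of 11 zinc exporters of the ZnT family, 7 were tested. With EGF, SLC30A1 was the only one called higher and 2 were lower, beside 15.1% of all tested genes called higher and 21.8% called lower. The median log2 fold change was 0.12 against −0.01 over all tested genes. SLC30A4 (ZnT4, of endosomes and secretory vesicles) was among them, at 13, 16 and 11 counts untreated and 1, 0 and 5 counts with EGF (edgeR adjusted p = 0.0034). SLC30A7, which loads zinc into the Golgi, went from 34.3 ± 1.47 to 43.9 ± 3.66 CPM, a log2 fold change of 0.36 (edgeR adjusted p = 0.0017), under the fold limit. With bleogen pB1, 0 of the 7 were called in either direction by edgeR, beside 0.218% higher and 1.26% lower among all tested genes. Of these exporters 1 had an unadjusted p under 0.05 (SLC30A1), and the median was −0.02.

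Of 14 zinc importers of the ZIP family 12 were tested, and with EGF 3 rose and 2 fell (median 0.37), beside the same 15.1% and 21.8% of all tested genes. SLC39A14 (ZIP14), a plasma membrane importer induced in inflammation, rose from 95.8 ± 2.87 to 163.2 ± 4.33 CPM, by 0.77 on the log2 scale (edgeR adjusted p = 2.1e-06). SLC39A13 (ZIP13), which releases zinc from intracellular vesicles, rose from 26.9 ± 1.59 to 45.3 ± 7.71 CPM. SLC39A11 (ZIP11), at 25.7 ± 0.57 CPM in untreated cells, fell by 1.22 on the log2 scale (edgeR adjusted p = 4.2e-06). With bleogen pB1 none of the 12 was called by edgeR, beside 0.218% higher and 1.26% lower among all tested genes. Among these importers 2 had an unadjusted p under 0.05, and SLC39A14 had 106.0 ± 12.4 CPM.

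Among 8 other genes linked to MTF1, 6 were tested, of which 1 rose and 1 fell with EGF (median −0.05), a share near the 15.1% higher and 21.8% lower of all tested genes. PGF, placental growth factor and a target of MTF1 in hypoxia, rose from 0.177 to 3.08 CPM on average, by 4.07 on the log2 scale (edgeR adjusted p = 4.3e-07). With bleogen pB1 it had 0.281 CPM, a log2 fold change of 0.65 (edgeR adjusted p = 0.48). ATP7B, a copper-exporting ATPase, fell by 0.54 on the log2 scale (edgeR adjusted p = 0.023), a call that DESeq2 did not make. TXNRD2, the mitochondrial thioredoxin reductase, did not pass, with 25.6 ± 1.52 and 24.3 ± 2.25 CPM. With bleogen pB1 0 of the 6 were called by edgeR, beside 0.218% higher and 1.26% lower among all tested genes. At an unadjusted p under 0.05 there were also 0.

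Copper handling, which shares metallothioneins as a store, had all 13 genes tested, with 0 higher and 4 lower with EGF (median 0.09), against 15.1% higher and 21.8% lower among all tested genes. By the edgeR adjusted p alone 10 of the 13 passed, some higher and some lower. DESeq2 and both limma fits called 0 higher and 3 lower. With bleogen pB1 0 were called by edgeR, beside 0.218% higher and 1.26% lower among all tested genes, and 2 had an unadjusted p under 0.05. STEAP3, a metalloreductase, fell by 0.53, and SCO2, which delivers copper to cytochrome c oxidase, fell by 0.75 on the log2 scale. ATOX1, the cytosolic copper chaperone, had a log2 fold change of 0.48 (edgeR adjusted p = 0.00026), just under the fold limit. ATP7B belongs to this list too.

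Metal and oxidant stress genes had 8 of 10 higher and 0 lower with EGF, with a median log2 fold change of 0.86, against 15.1% higher and 21.8% lower among all tested genes. With bleogen pB1 0 of 10 were called by edgeR (median 0.09), beside 0.218% higher and 1.26% lower among all tested genes. Of the 10, 3 had an unadjusted p under 0.05. The heat shock protein gene HSPH1 rose from 399.9 ± 13.8 to 845.5 ± 19.4 CPM and had 499.6 ± 68.2 CPM with bleogen pB1. HSPA1A rose by 0.79 on the log2 scale, a value uncertain in its division of reads with its near-identical copy HSPA1B. SRXN1, sulfiredoxin, rose by 1.43. In the same comparison the 4 tested metallothioneins had log2 fold changes of −0.996 to −0.26.

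Glucocorticoids also induce metallothionein genes, above all MT2A, and 7 of 10 genes of the glucocorticoid receptor and its early targets were tested. With EGF 4 rose and 1 fell (median 0.76), against 15.1% higher and 21.8% lower among all tested genes, and both limma fits called 2 higher and 1 lower. SGK1, a kinase, rose by 2.28 and ERRFI1, a feedback inhibitor of the EGF receptor, by 0.79 on the log2 scale. TSC22D3 (GILZ), a direct target of the receptor, fell from 112.7 ± 5.63 to 57.4 ± 19.9 CPM with EGF. It was the 1 gene of the list called with bleogen pB1, where it fell to 44.5 ± 5.03 CPM, by 1.34 on the log2 scale (edgeR adjusted p = 0.0013). That call, 1 of 7 tested genes, stands beside 0.218% higher and 1.26% lower among all tested genes. No steroid was among the labelled treatments, and the labels name serum-free medium in all groups. Whether the glucocorticoid receptor had a part in the metallothionein differences was not tested.

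**Figure D5:**
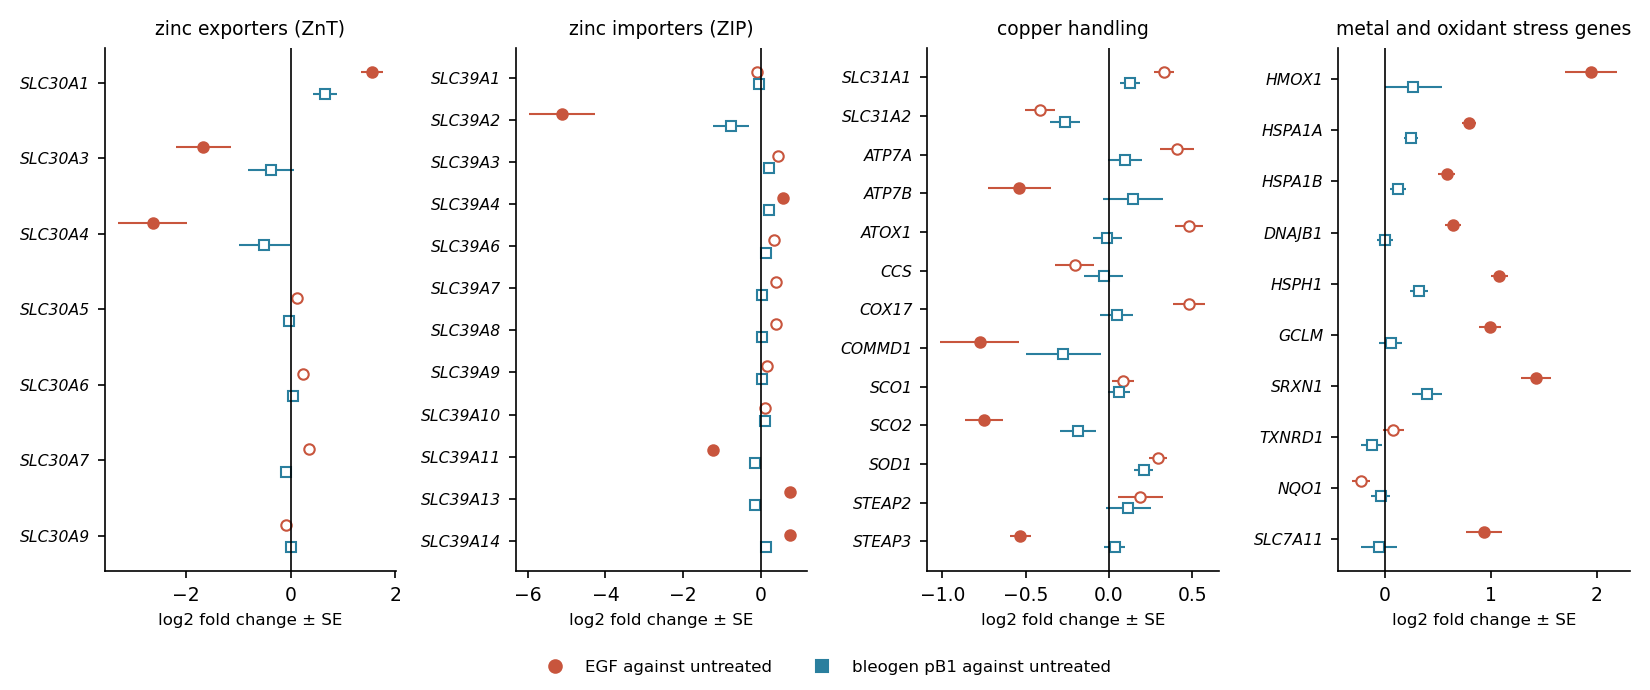
Log2 fold change of each tested gene of 4 lists for EGF (circles) and bleogen pB1 (squares) against untreated cells, with bars for the SE (edgeR). Filled symbols passed both limits. SLC30A1 is the 1 filled symbol on the right among the exporters, 8 of 10 stress genes are filled on the right for EGF, and no symbol is filled for bleogen pB1.

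Genes beside the metallothionein cluster on chromosome 16 were listed to see whether the stretch moved as a whole. Of 10 neighbours 8 were tested, and with EGF 0 rose and 4 fell by edgeR, with a median log2 fold change of −0.34. DESeq2 also called 1 higher, OGFOD1, whose log2 fold change by edgeR was 0.49. BBS2, a ciliary protein gene, fell by 0.57, and NLRC5, an activator of MHC class I genes, by 1.17 on the log2 scale. With bleogen pB1 0 of the 8 were called by edgeR, beside 0.218% higher and 1.26% lower among all tested genes. Of these neighbours 5 had an unadjusted p under 0.05, and the median was 0.05. DESeq2 and both limma fits likewise called 0 genes with bleogen pB1 in the exporter, importer, MTF1-linked, copper, stress and neighbour lists. The share of neighbours called lower with EGF, 4 of 8, stands beside 21.8% of all tested genes.

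The genes most like the summed metallothionein level, by Pearson r of log2 CPM over the 9 libraries among 10858 genes, were ERG28 (r = 0.96), LPAR5 (0.95), TNFRSF1A (0.94), ANKHD1-EIF4EBP3 (0.93) and NPIPB3 (0.93). ERG28, a scaffold of sterol synthesis enzymes, had 105.1 ± 5.36 CPM untreated, 90.7 ± 3.7 with EGF and 88.4 ± 8.49 with bleogen pB1. By Spearman's rho, ERG28 and LPAR5 alone were still among the first 5. These likenesses describe 9 libraries of 3 treatments.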

How the data were processed

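Total RNA of HaCaT cells was sequenced as polyadenylated RNA in 9 libraries, 3 per group, and groups were taken from the sample titles and treatments. The authors had reads mapped to GRCh38.p12. The counting program and its use of strand are not given in the sources used here. The paper and the labels name different RNA kits and sequencing platforms. As deposited by the authors, each file gives an expected count per gene, which carries no correction for depth. The deposited FPKM values divide it by gene length and depth, and the deposited length was used only for description. A gene absent from a file was set to 0 there.

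After rounding to whole numbers, all 9 libraries entered a single edgeR model (version 4.0.16 under R 4.3.3, filterByExpr, TMM, glmQLFit, glmQLFTest), leaving 6 residual degrees of freedom. The SE was derived from the fold change and its F statistic. Genes were called at the limits of the paper, 0.05 for the adjusted p and 0.5 for the log2 fold change, although DESeq2 was used there. With 3 libraries against 3, an exact permutation test of 1 gene cannot go below p = 0.1 and was not used. Alternatives were DESeq2 1.42.0, RLE factors, no count filter, limma 3.58.1 on log2(FPKM + 1) or log2(FPKM + 0.1) for genes with FPKM of at least 1 in 3 libraries, the replicate number as a block, only the 6 libraries compared, and leaving out each library. Upper-quartile and no scaling factors were chosen after seeing the data. In 2 simulations, 200 of 12394 genes were changed 2-fold for EGF against untreated cells. There edgeR recovered 182 and 195 with 2 and 3 false calls, and DESeq2 177 and 190. Every simulated gene had the same spread beyond counting error, a coefficient of variation of 0.08. MT1E with EGF varied more, at 8.47 ± 2.43 CPM, so that these rates need not hold for such genes.

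The genes and lists were chosen with earlier results of these data known. Named genes were the 8 genes, other listed metallothionein genes, the 3 genes with the smallest adjusted p for EGF against untreated cells in each other list, and the 5 genes most like the summed metallothionein CPM (mean of at least 50 counts). Of the genes that meet this rule, 1 is not reported here.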

Additional observations from a re-analysis of the deposited data

How the results depend on the processing

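Of the 6 tested genes, 3 were called for EGF against untreated cells, with 2 or 3 in all alternatives, and 2 for EGF against bleogen pB1, with 2 or 3. For bleogen pB1 against untreated cells 0 were called, and 1 (MT2A) with RLE factors, upper-quartile factors or only the 6 libraries compared, since its log2 fold change lay at the limit. Leaving out 1 library gave 0 to 2 calls there. On leaving out 1 library, MT1E ranged from −0.289 to 0.022 and MT1F from −0.293 to 0.037 in this comparison, both above 0 without bleogen pB1 replicate 2 alone. MT1X for EGF against bleogen pB1 turned to −0.036 with limma on log2(FPKM + 1) and −0.042 on log2(FPKM + 0.1), and the summed metallothionein ratio of that comparison turned from 0.1 to −0.037 with FPKM in place of CPM. The cause was not tested. Alternatives that change the sum alone give no count of called genes.

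Over all genes, bleogen pB1 against untreated cells gave 183 calls, 102 without untreated replicate 1, 109 and 102 without bleogen pB1 replicates 2 and 3, and 436 without bleogen pB1 replicate 1. Upper-quartile factors moved the median of all genes for EGF against untreated cells to −0.118 and the share of higher calls from 41% to 30.2%, and for EGF against bleogen pB1 from 37.6% to 28.8%. No tested gene of the set changed direction with another scaling.

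Same-numbered libraries of different groups correlated between −0.03 and 0.207 in their deviations from group means (9 pairs, mean 0.055). Others correlated between −0.253 and 0.163 (18 pairs, mean −0.028). With 3 libraries per group, these ranges cannot tell whether same-numbered libraries shared a culture or a batch. With the replicate block 2, 0 and 2 genes were called in the 3 comparisons, MT1F losing its call for EGF against untreated cells (adjusted p = 0.055), and 4560, 186 and 3550 genes were called overall. The low counts of MT1F, MT1X and SLC30A1 limit their precision.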

Other observations

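These genes were chosen after their values were seen. SLC39A2, a plasma membrane zinc importer of keratinocytes, had 10, 16 and 22 expected counts in untreated replicates 1 to 3, 1, 0 and 0 with EGF, and 13, 12 and 4 with bleogen pB1. Its fall with EGF had an adjusted p of 0.00017 by edgeR, and its fitted fold change rests on that single count. HMOX1, heme oxygenase 1, which metals and heme induce, rose with EGF from 2.56 ± 0.069 to 9.87 ± 3.52 CPM (SD, n = 3), by 1.94 on the log2 scale (SE 0.244, adjusted p = 1.7e-05 by edgeR). With bleogen pB1 it had 3.08 ± 0.532 CPM (edgeR adjusted p = 0.6). COMMD1, a regulator of copper export, fell with EGF from 6.76 ± 1.21 to 3.94 ± 1.13 CPM (edgeR adjusted p = 0.011).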
